A study of Mus musculus with 6 samples.

Results

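The endocrine lineage factors and granule proteins are 10 genes that together mark the enteroendocrine cell, the hormone-secreting cell of the gut epithelium. They were found as the probe sets whose platform annotation names exactly 1 gene and that gene is Neurog3, Neurod1, Pax4, Pax6, Isl1, Insm1, Chga, Chgb, Scg5 or Tph1. All 10 genes were on the array, among 12393 genes in all, and 17 of 22626 probe sets measured them. The study hybridised RNA from 3 duodenal tumors and 3 cecal tumors to 1 expression array each, every tumor from a different mouse. Every mouse, whichever its tumor site, had the Apc1638N allele of the tumor suppressor Apc, which leads to tumors of the intestine, together with a deficiency of Rb1, the retinoblastoma gene. Per the labels, a duodenal sample could include tumor tissue from the pylorus, where the stomach empties into the duodenum. The sources used here give neither the age of the mice nor the way Rb1 was inactivated. Normal tissue and Rb1-intact tumors were not analysed here, so every difference is one between tumors of 2 sites, and p-values measure the spread among 3 tumors a site.

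Enteroendocrine cells arise from crypt progenitors that first switch on Atoh1, the factor of all secretory lineages, and then, for a short time, Neurog3, without which no intestinal endocrine cell forms. Neurog3 acts upstream of Neurod1, Insm1, Pax4, Pax6 and Isl1, which carry the cell through differentiation and divide it into hormone-producing subtypes. The mature cell stores its hormone in dense-core granules built around the granins Chga and Chgb, with Scg5 as a chaperone of a prohormone convertase, and the enterochromaffin subtype makes serotonin with Tph1.

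Values are linear intensities, and a level below the 40th percentile of its array, 92.4 to 100.6, is called dim here, since the deposited values carry no detection calls. A probe set was tested if it exceeded that level on at least 3 of the 6 arrays. Differences are duodenal minus cecal in log2(intensity + 16), an offset that understates the change of dim genes, and were tested with limma, two-sided, with Benjamini-Hochberg adjustment over all 13866 tested probe sets. A probe set is called when its adjusted p is under 0.05.

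Markers of each site separated the groups, apart from 1 distal gene in 1 tumor. Pdx1, a factor of duodenum and pancreas, was at 845.9 to 1051.7 in duodenal tumors, against 47.8 to 70.9 in cecal tumors. All 6 genes of a duodenum list were called higher in duodenal tumors, against 4.07% of all tested probe sets. Of the 6, 5 were dim in every cecal tumor and so tested only through their duodenal values. The site lists were chosen with earlier results of these data known, so their counts are no independent check. Car1, a carbonic anhydrase of the large intestine, was at 10.1 to 32.4 in duodenal tumors, against 10672.3 to 11498.6 in cecal tumors. Of 7 distal genes 6 were lower in every duodenal tumor, duodenal tumor 2 included, than in any cecal tumor. The other was the posterior homeobox gene Hoxa9, at 14.2, 2768.4 and 3.1 in duodenal tumors 1, 2 and 3, against 2627.5 to 3662 in cecal tumors. Cyp2c55, another of the 7, was at 36.8 to 99.2 in duodenal tumors, against 1982.5 to 4803.2 in cecal tumors. The small intestinal lipid carrier Fabp1 was at 4236.3, 683.8 and 4630.3 in duodenal tumors, against 16.2 to 18.5 in cecal tumors, and the calcium-binding S100g at 3659.7, 399.2 and 3264.7 in duodenal tumors, against 1.1 to 37.4 in cecal tumors. Of 6 epithelial markers 1, Vil1, was called, at 3372.6, 2900.1 and 3934.5 in duodenal tumors, against 5088.6, 5124.1 and 4940.8 in cecal tumors (limma adjusted p = 0.0264). Krt20 had a log2 difference of -0.78 ± 0.23 (SE; limma adjusted p = 0.0767, or 0.0067 with the replicate block). The keratins Krt8 and Krt18 were at 8215.3 or more on every array, and Epcam, another epithelial marker, was at 7656.6 to 8796.6 in duodenal tumors and 9750.2 to 10185.1 in cecal tumors. Values without duodenal tumor 2 are given below where leaving it out changed a call, and for each member probe set above the dim level on at least 1 array.

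The promoter letters of 3 genes are shown, because Neurog3 was the member that passed the test and because the granin genes Chga and Chgb were each the other's nearest gene in profile across the arrays, as described below. Each is the 250 bases before the RefSeq start on the plus strand, 5′ to 3′, assembly GRCm38.p6. Capitals mark the core of a cAMP response element, TGACGT in Chga and its full form TGACGTCA in Chgb, and the E-box letters CANNTG, the binding letters of basic helix-loop-helix factors such as Neurog3 and Neurod1, in Neurog3. The windows are chr12:102554691-102554940 for Chga, chr2:132781392-132781641 for Chgb and chr10:62132840-62133089 for Neurog3.
Chga: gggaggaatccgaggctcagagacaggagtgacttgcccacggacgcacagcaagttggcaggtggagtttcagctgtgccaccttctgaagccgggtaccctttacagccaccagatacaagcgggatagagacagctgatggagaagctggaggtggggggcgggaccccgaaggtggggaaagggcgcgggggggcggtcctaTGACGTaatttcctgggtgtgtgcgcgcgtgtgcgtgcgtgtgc
Chgb: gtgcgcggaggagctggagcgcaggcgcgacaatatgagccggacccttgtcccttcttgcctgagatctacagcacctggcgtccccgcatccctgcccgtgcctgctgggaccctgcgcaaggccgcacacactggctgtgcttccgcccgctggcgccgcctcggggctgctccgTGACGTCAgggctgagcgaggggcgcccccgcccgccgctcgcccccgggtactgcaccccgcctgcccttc
Neurog3: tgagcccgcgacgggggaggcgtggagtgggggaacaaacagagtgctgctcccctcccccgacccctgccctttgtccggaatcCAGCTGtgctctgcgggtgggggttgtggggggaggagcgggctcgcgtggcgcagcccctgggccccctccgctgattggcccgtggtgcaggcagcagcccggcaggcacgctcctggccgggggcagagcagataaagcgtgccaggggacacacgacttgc

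In Chga the letters TGACGT begin 44 bases before the start, and in Chgb they begin 72 bases before it, there as part of the palindrome TGACGTCA. A cAMP response element in the proximal promoter of mouse Chga has been described, as background. Of the members, 8 matched the promoter table, with 10 promoters, and Pax4 and Insm1 did not. TGACGT, read on both strands, was in 6 of the 10 promoters, those of Pax6, Isl1, Chga, Chgb and Scg5, against 6.47% of 32851 promoters of the same length. These letters were chosen after the promoters were seen. The longer TGACGTCA, which contains TGACGT, was in 2 of the 10 against 1.55% of all promoters. CANNTG was in 7 of the 10 against 66.2%, and of its forms CAGCTG was in 3 against 13% and CAGATG in 0 against 14.4%. A match is a description of the letters and not a binding site.

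Of the members, Neurog3 was called higher in duodenal tumors, and the granins Chga and Chgb varied widely among the duodenal tumors. All 17 member probe sets had a higher mean in duodenal than in cecal tumors, against 53.5% of all probe sets, though 8 of the 17 were dim on every array. With no overlap between the groups, 6 of them lay higher in duodenal tumors (both of Neurog3, both of Isl1, Tph1 and 1 of Pax6), where 12.8% of all probe sets lay that way. Of the 17, 4 were bright enough to be tested, 1 each for Neurog3, Chga, Chgb and Tph1, and the other 13 were not tested. Of the 4, 1 was called, that of Neurog3, where 9.3% of all tested probe sets were called in either direction, 4.07% as higher and 5.24% as lower in duodenal tumors. With 4 tested probe sets that count says little about the members as a group. In bulk tumor RNA, fewer endocrine cells and less RNA per endocrine cell cannot be told apart.

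**Figure D1:**
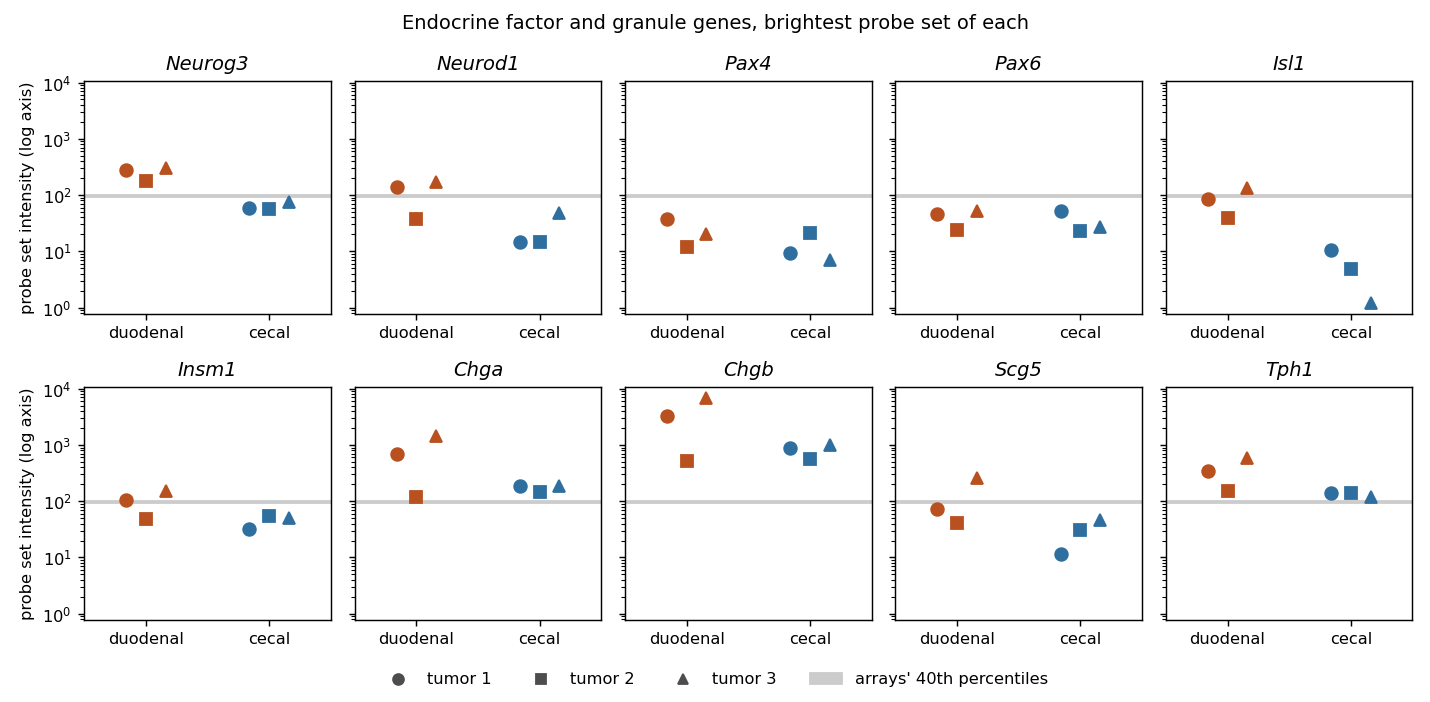
Intensity of the brightest probe set of each member on a log axis, with duodenal tumors at the left and cecal tumors at the right of each panel and 1 marker per tumor. The grey band spans the arrays' 40th percentiles, 92.4 to 100.6. Neurog3 lies above the band in every duodenal tumor and below it in every cecal tumor, while Chga and Chgb are high in duodenal tumors 1 and 3 only.

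Neurog3, the transient progenitor factor on chromosome 10, was at 283.2, 178.2 and 301.1 in duodenal tumors 1, 2 and 3, against 57.9, 55.9 and 75.7 in cecal tumors 1, 2 and 3. The groups did not overlap, and every cecal value was dim, so only a bound can be given. Neurog3 averaged 254.2 ± 66.4 in duodenal tumors and 63.17 ± 10.9 in cecal tumors (SD, n = 3 each). The duodenal level was at least 2.58-fold higher than the cecal one, or at least 3.04-fold without duodenal tumor 2. The fitted log2 difference was 1.75 ± 0.23 (SE; limma adjusted p = 0.00329). Because cecal tumors were dim, the probe set was tested only through its duodenal values, and its direction largely follows from the filter. With no filter on dim probe sets, where 5.03% of all probe sets were called, the adjusted p from limma was 0.00709. It was 0.00213 when replicate numbers entered as a block, where 11.3% were called. The call held without any single array, with adjusted p-values from 0.00173 to 0.0183. A second Neurog3 probe set read 77.2, 49.5 and 47.5 in duodenal tumors, against 3.6, 1.5 and 3.5 in cecal tumors. It was dim on all 6 arrays, so no fold is given, though again the groups did not overlap.

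The factors that act after Neurog3 were dim or close to it. By the brightest probe set of each gene, Neurod1, Isl1 and Insm1 were highest in duodenal tumors 1 and 3, and Pax4 and Pax6 were not. Neurod1, a direct target of Neurog3 on chromosome 2, was at 137.5, 37.3 and 169.3 in duodenal tumors, against 14.9, 14.9 and 47.8 in cecal tumors. Duodenal tumor 2 fell within the cecal range, and with no filter the difference did not pass (limma adjusted p = 0.143; 0.0459 with the replicate block and 0.0258 without duodenal tumor 2). The second Neurod1 probe set read 87.1, 28.3 and 106.4 in duodenal tumors, against 54, 11 and 44.6 in cecal tumors, also with duodenal tumor 2 inside the cecal range (limma adjusted p = 0.466 with no filter, or 0.194 without duodenal tumor 2). Isl1, a LIM homeobox factor of several hormone-producing subtypes on chromosome 13, was at 83.5, 38.5 and 132.5 in duodenal tumors, against 10.6, 4.9 and 1.2 in cecal tumors. Its other probe set read 85.7, 32 and 88.7 in duodenal tumors, against 6.6, 4.4 and 17.9 in cecal tumors. For both Isl1 probe sets every duodenal tumor lay above every cecal tumor, but only duodenal tumor 3 on the first probe set exceeded the dim level. With no filter on dim probe sets the limma adjusted p was 0.0181 for the first and 0.0368 for the second, from values mostly below that level, and without duodenal tumor 2 it was 0.00586 and 0.0109. Both calls were lost without duodenal tumor 1 (adjusted p = 0.0637 and 0.12), cecal tumor 1 (0.0532 and 0.135) or cecal tumor 2 (0.0724 and 0.135), the first also without cecal tumor 3 (0.0566) and the second also without duodenal tumor 3 (0.119).

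Insm1, a zinc finger factor needed for endocrine differentiation on chromosome 2, was at 103.3, 48.7 and 149 in duodenal tumors, against 31.5, 53.9 and 50.4 in cecal tumors. Duodenal tumors 1 and 3 were the highest of the 6, and duodenal tumor 2 lay inside the cecal range (limma adjusted p = 0.262 with no filter, or 0.0649 without duodenal tumor 2). Pax4, the paired box factor that favours serotonin and somatostatin cells in mouse, was dim everywhere, at 36.8, 11.9 and 20.2 in duodenal tumors, against 9.2, 21.5 and 7 in cecal tumors. Pax6, a paired box factor of several peptide hormone cells on chromosome 2, had 5 probe sets, all dim on all 6 arrays, from 1.3 to 69.6 in duodenal tumors and from 1.3 to 51.6 in cecal tumors. Of the 5, 1 did not overlap between the groups, at 3.7 to 4.4 in duodenal tumors and 1.3 to 3.2 in cecal tumors, far below the dim level. On another, duodenal tumors 1 and 3 were the highest of the 6. It read 37.9, 16 and 69.6 in duodenal tumors, against 19.6, 9.5 and 2.9 in cecal tumors. A further one had the same tumors highest, at 37.5, 1.3 and 27 in duodenal tumors, against 11.2, 1.7 and 11 in cecal tumors. With no filter neither gene passed (limma adjusted p = 0.513 for Pax4 and 0.203 to 0.93 for the Pax6 probe sets). At these intensities a difference in Pax4 or Pax6 could have been missed.

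The granins were above the dim level in all 6 tumors and varied most within the duodenal group. Chga in duodenal tumor 2 was close to that level, which was 100.1 on its array. Chgb, on chromosome 2, was at 3336.4, 519.2 and 6898.3 in duodenal tumors 1, 2 and 3, against 877, 559.5 and 1015.2 in cecal tumors 1, 2 and 3. Duodenal tumor 3 was 13.3-fold and duodenal tumor 1 was 6.43-fold above duodenal tumor 2, which had the lowest value of all 6 tumors. Chga, on chromosome 12, was at 682.6, 116.4 and 1453.3 in duodenal tumors, against 187.8, 143.5 and 184.8 in cecal tumors. The same order held, with duodenal tumor 3 12.5-fold above duodenal tumor 2. Over 3 tumors a site, Chgb averaged 3585 ± 3200 in duodenal tumors and 817.2 ± 234 in cecal tumors (SD, n = 3 each). Its log2 difference was 1.52 ± 0.79 (SE; 95% interval -0.31 to 3.34; limma adjusted p = 0.302), and that of Chga was 1.46 ± 0.73 (interval -0.22 to 3.14; adjusted p = 0.281). Neither difference passed, and both intervals included no difference. Without duodenal tumor 2 both passed, Chgb at 2.57 (limma adjusted p = 0.00474) and Chga at 2.44 (0.00362). Without duodenal tumor 3 they were 0.73 and 0.70 (limma adjusted p = 0.597 and 0.561).

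Scg5, the chaperone 7B2 of the prohormone convertase Pcsk2, was at 72.8, 40.8 and 253.3 in duodenal tumors, against 11.7, 30.7 and 45.7 in cecal tumors. Only duodenal tumor 3 exceeded the dim level, and duodenal tumor 2 lay inside the cecal range (limma adjusted p = 0.248 with no filter, or 0.117 without duodenal tumor 2). Tph1, the rate-limiting enzyme of serotonin synthesis outside the brain, lies on chromosome 7 and was at 340, 150.1 and 596.9 in duodenal tumors, against 142.6, 138.1 and 119.3 in cecal tumors. The groups did not overlap, but duodenal tumor 2 was close to the highest cecal tumor. The log2 difference of Tph1 was 1.15 ± 0.41 (SE; 95% interval 0.22 to 2.09) and did not pass over all probe sets (limma adjusted p = 0.13). It passed without duodenal tumor 2 (1.65, limma adjusted p = 0.00799) and with array weights (1.21, 0.0386), which downweight less typical arrays.

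**Figure D2:**
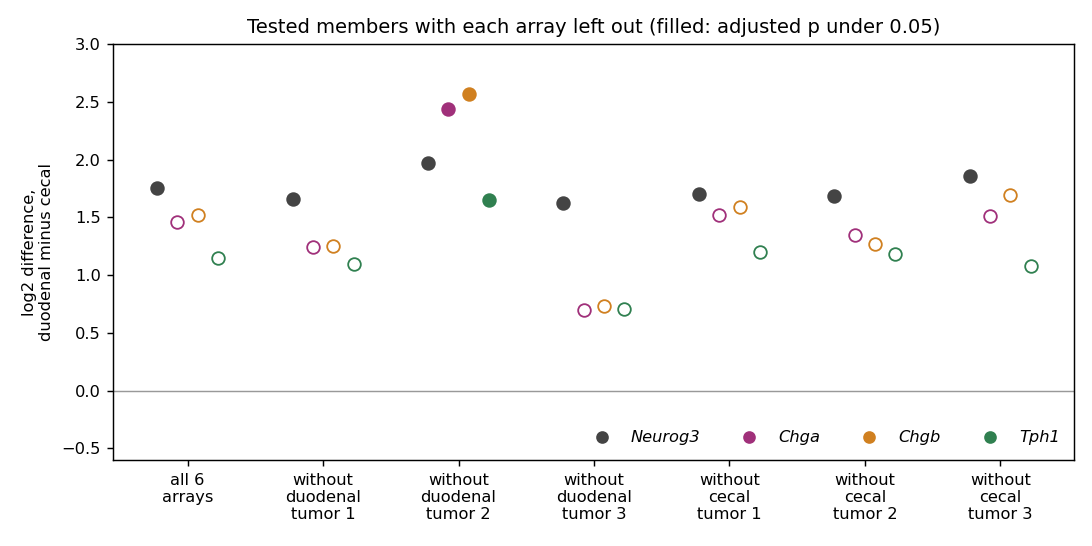
Log2 difference, duodenal minus cecal, of the 4 tested members with all 6 arrays and with each array left out in turn, filled where the limma adjusted p was under 0.05. Neurog3 is filled in every column, and Chga, Chgb and Tph1 are filled only without duodenal tumor 2.

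Most members were lowest in the same duodenal tumor. Duodenal tumor 2 was the lowest of the 3 for 14 of 17 member probe sets, against 34.4% of all probe sets, and for the brightest probe set of all 10 genes. This was not particular to the members. Duodenal tumor 2 was also the lowest for 5 of 6 genes of the duodenum list and 8 of 10 stomach surface genes. For epithelial markers it was the lowest in 2 of 6, and for mast cell markers in 0 of 11. Duodenal tumor 3 was the highest for 12 of 17, against 33.7% of all probe sets. That was not particular to the members either, since it was also the highest for all 10 stomach surface genes. The ratio of duodenal tumor 3 to duodenal tumor 2 was 12.5 for Chga, 13.3 for Chgb and 3.98 for Tph1, but 1.69 for Neurog3. In duodenal tumor 2 Neurog3 was above every cecal tumor, while Chga and Chgb were below every cecal tumor. Whether the position of duodenal tumor 2 differs between Neurog3 and the granins was not tested.

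Likeness of profile was measured as the mean absolute difference between centred log2 values over the 6 arrays, among the 8129 genes with a tested probe set. The nearest gene to Chga was Chgb, and the nearest to Chgb was Chga, at 0.143 log2 units. After them came, for both, Rep15 at 0.254 and 0.332 and Capn9 at 0.385 and 0.435. Rep15 was at 1023.3, 371.2 and 2062.9 in duodenal tumors, against 323.5, 226 and 322.7 in cecal tumors. Tph1 lay nearest to Aldh1a7 (0.134), Gstt1 (0.149) and Hmgn3 (0.171), and Neurog3 to Eps8l1 (0.089), Bmyc (0.114) and Krt79 (0.117). None of the 3 genes nearest Neurog3 or Tph1 was another member, but only the 4 tested members could appear. Likeness to the untested members was not measured. These are descriptions over 6 arrays that share their site difference.

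**Figure D3:**
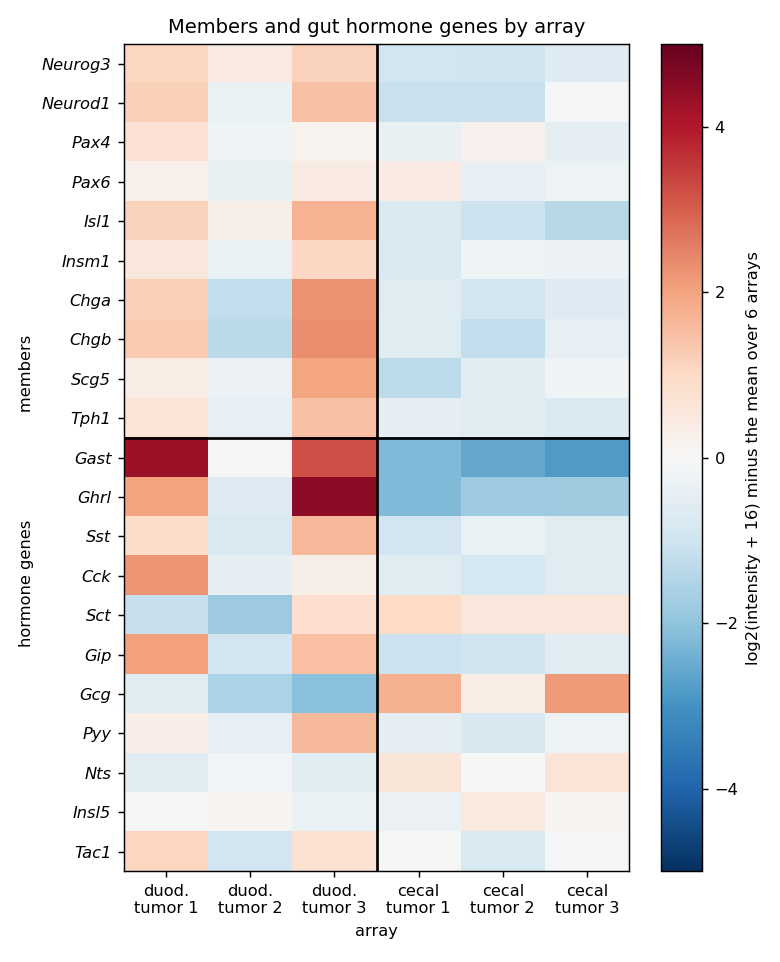
Log2(intensity + 16) of each gene minus its mean over the 6 arrays, with the 10 members above the line and 11 gut hormone genes below it, duodenal tumors in the left columns. Red is above and blue below the gene's mean. The members are red mainly in duodenal tumors 1 and 3, and Gcg and Sct run against them in the cecal columns.

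Hormone genes, the products of the cells these factors make, moved in both directions. Of 11 hormone genes 5 were tested, of which 1 rose and 1 fell in duodenal tumors, and the median log2 difference of the 5 was 0.58, against 0.04 over all tested probe sets. Gast, the gastrin gene of antral G cells, was at 2805, 134.6 and 1319.9 in duodenal tumors, against 15.2, 8.1 and 3.9 in cecal tumors. Its duodenal level was at least 8.25-fold higher (limma adjusted p = 0.0118), or at least 20.0-fold without duodenal tumor 2 (0.0001). Gcg, the proglucagon gene of distal L cells, was at 62.1, 23.1 and 11.9 in duodenal tumors, against 388.6, 134 and 492.5 in cecal tumors, at least 2.94-fold lower in duodenal tumors (limma adjusted p = 0.0122, or 0.0628 without cecal tumor 1). Sct, the secretin gene, was at 119.5, 70.7 and 532 in duodenal tumors, against 581, 428.6 and 433 in cecal tumors. Its log2 difference was -1.40 ± 0.58 (SE) and did not pass (limma adjusted p = 0.193, or 0.0039 without duodenal tumor 3). Pyy, a peptide of L cells, had a log2 difference of 1.03 ± 0.44 (limma adjusted p = 0.207, or 0.0426 without duodenal tumor 2), and Tac1 one of 0.58 ± 0.48 (0.534). Ghrl, the ghrelin gene, reached 407.7 and 2307.7 in duodenal tumors 1 and 3 and 51.8 in duodenal tumor 2, against 6.9 to 14.5 in cecal tumors, and was not tested. Also untested, Sst was at 191, 48.3 and 327.7 in duodenal tumors, against 40.1 to 70.9 in cecal tumors. Cck was at 296.7, 34.3 and 68.4 in duodenal tumors, against 21.6 to 29.4 in cecal tumors. Gip was at 178.4, 8.6 and 117.1 in duodenal tumors, against 6.4 to 16.7 in cecal tumors. The remaining untested hormone genes, Nts and Insl5, were dim on every array, with higher means in cecal tumors. Gast was dim in all cecal and Gcg in all duodenal tumors, so for both the filter largely sets the direction.

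Upstream of Neurog3, Atoh1 ran the other way. Atoh1 was at 248.4, 190.3 and 109.1 in duodenal tumors, against 848.7, 613 and 823.5 in cecal tumors, with no overlap and all 6 values above the dim level. It fell by 2.02 on the log2 scale in duodenal tumors (SE 0.27, limma adjusted p = 0.00337), in the same tumors where Neurog3 was higher. Of 22 other endocrine transcription factors 14 were on the array and 6 were tested, of which 2 rose and 1, Atoh1, fell in duodenal tumors. The duodenal level of Pdx1, which also marks the duodenum, was at least 10.1-fold higher (limma adjusted p = 1.26e-05), with its direction largely set by the filter, since it was dim in every cecal tumor. Foxa1, a forkhead factor, was at 4422 ± 481 in duodenal tumors and 2825 ± 450 in cecal tumors (SD, n = 3 each; log2 difference 0.65 ± 0.14 SE, limma adjusted p = 0.0275). Leaving out duodenal tumor 1 or 3 ended that call (adjusted p = 0.0937 and 0.0811), as did leaving out cecal tumor 1 or 2 (0.0996 and 0.106). Prox1, a homeobox factor also present in endocrine cells, had a log2 difference of 1.00 ± 0.44 (limma adjusted p = 0.218, or 0.0261 with the replicate block and 0.0343 without duodenal tumor 1). Sox4 (0.54 ± 0.27, limma adjusted p = 0.269) and Foxa2 (0.13 ± 0.17, 0.723) did not pass. Nkx2-2, an endocrine homeobox factor, was at 83.8, 29.3 and 117.8 in duodenal tumors, against 26.8, 23.5 and 33.9 in cecal tumors, and was not tested.

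The Notch pathway restrains Neurog3 through Hes1, and Rest represses neuronal and endocrine genes. Of 10 genes of this brake 8 were tested and none was called by limma, with 2 at an unadjusted p under 0.05, Notch1 and Notch2, and a median log2 difference of -0.04. Hes1 was at 744.7 to 939.9 in duodenal tumors and 711.5 to 857.7 in cecal tumors (limma adjusted p = 0.667). Notch1 had a log2 difference of 0.47 ± 0.15 (limma adjusted p = 0.106, or 0.0499 with array weights), Notch2 one of 0.34 ± 0.15 (0.214), Dll4 one of -0.27 ± 0.17 (0.401) and Rcor1 one of -0.19 ± 0.12 (0.419).

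Among the other granule and peptide processing genes, 21 of 26 were on the array and 8 were tested. Of the 8, 2 rose in duodenal tumors and none fell, with a median log2 difference of 0.59. Cpe, the carboxypeptidase that trims prohormones after cleavage, was at 1197.7, 635.7 and 1913 in duodenal tumors, against 425.8, 197 and 283 in cecal tumors. The groups did not overlap and duodenal tumor 2 was again the lowest of its site (log2 difference 1.92 ± 0.40 SE, limma adjusted p = 0.0209). Leaving out duodenal tumor 1 or 3 ended it (adjusted p = 0.0635 and 0.0518), as did leaving out cecal tumor 2 or 3 (0.0772 and 0.0511). Slc18a1, the vesicular monoamine transporter that loads serotonin into granules, was at 141.1, 251.3 and 248 in duodenal tumors, against 67.9, 98.8 and 115.6 in cecal tumors. Its log2 difference of 1.04 ± 0.27 passed narrowly (limma adjusted p = 0.0485). That call was lost under 10 of 14 alternatives, among them leaving out any array but duodenal tumor 1 (adjusted p = 0.0532 to 0.15). Dnajc12, a chaperone of aromatic amino acid hydroxylases such as Tph1, had a log2 difference of 0.93 ± 0.25 (limma adjusted p = 0.0596). It passed with the replicate block (0.0129), with array weights (0.0223) and without cecal tumor 3 (0.0088). Pam, which amidates peptide hormones, had 0.74 ± 0.33 (limma adjusted p = 0.229). Scg3, a granule protein, was at 53.8, 9.8 and 83.2 in duodenal tumors, against 5.9, 4 and 8.8 in cecal tumors, dim on all 6 arrays. Duodenal tumor 2 was the lowest duodenal tumor for 15 of these 21 genes.

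Transcripts of Ddc and Maoa, which act in serotonin synthesis and breakdown, differed between the sites. Ddc, the decarboxylase that completes serotonin synthesis, was at 839, 849.5 and 1254.3 in duodenal tumors, against 465, 422.9 and 593.3 in cecal tumors (log2 difference 0.96 ± 0.20 SE, limma adjusted p = 0.0212). Leaving out duodenal tumor 3, cecal tumor 1 or cecal tumor 2 ended that call (adjusted p = 0.0538, 0.0817 and 0.0861). Maoa, the monoamine oxidase that degrades serotonin, was at 254.4, 111 and 194 in duodenal tumors, against 4616.4, 3569.4 and 2497 in cecal tumors, a log2 difference of -4.17 ± 0.31 (limma adjusted p = 0.000215). Maoa and Ddc are also present in absorptive epithelium, so their levels are not those of endocrine cells alone. Of 7 tested genes of serotonin synthesis and breakdown 1 rose and 1 fell, and the other 5, which make or recycle the cofactor tetrahydrobiopterin, had log2 differences from -0.15 to 0.19. Pts was at 0.19 ± 0.13 (limma adjusted p = 0.428) and Spr at -0.15 ± 0.17 (0.656), and a second Gch1 probe set passed at 0.58 ± 0.14 (0.0425) while the brighter one did not.

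**Figure D4:**
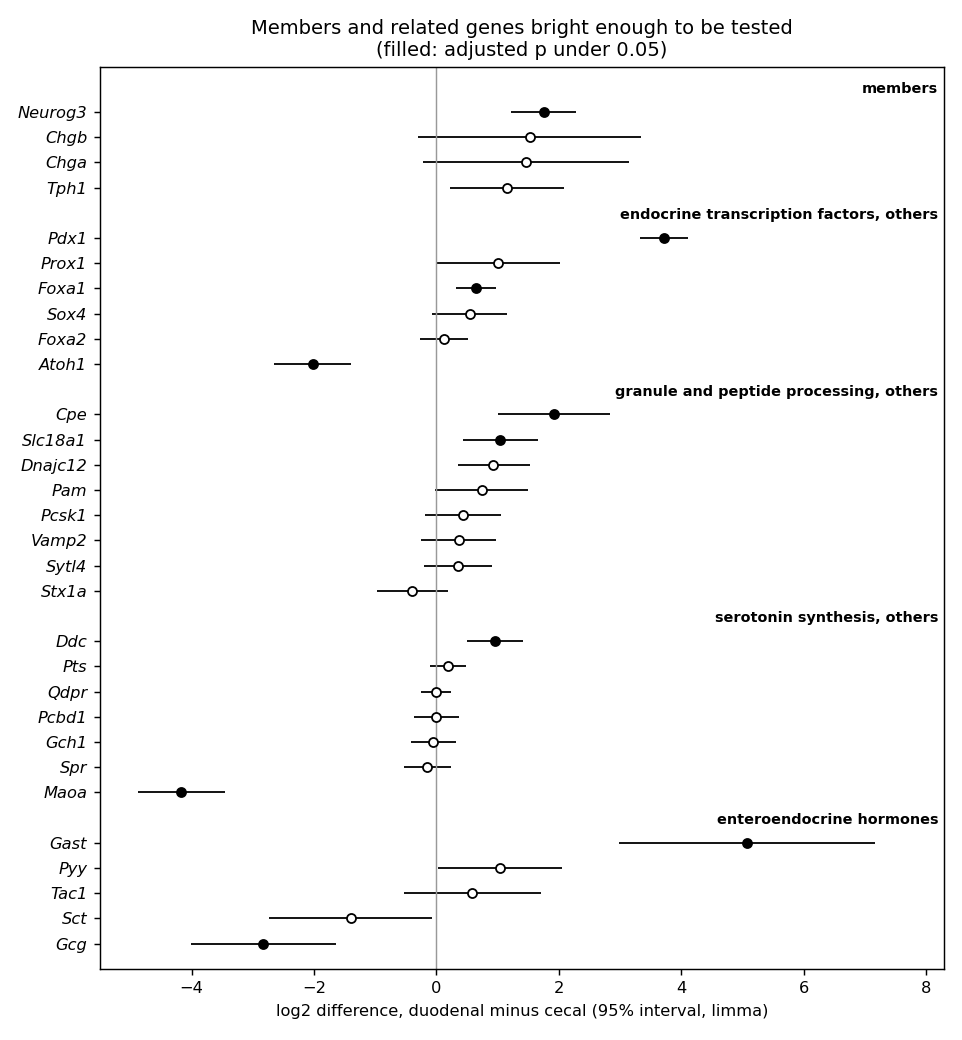
Log2 difference, duodenal minus cecal, with the 95% interval from limma, for the tested members and the tested genes of 4 related lists, filled where the adjusted p was under 0.05. Neurog3 is the filled member, Pdx1, Gast, Cpe and Ddc lie to the right, and Atoh1, Maoa and Gcg lie to the left.

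Several members are also expressed outside the gut epithelium, so markers of other cells were read on the same arrays. Tph1 is made by mast cells as well as enterochromaffin cells. Of the 11 mast cell markers on the array 6 were tested and none of these was called. The 11 summed to 2075.5, 9548.9 and 2455.3 in duodenal tumors 1, 2 and 3, against 6743.5, 6676.2 and 2252.1 in cecal tumors. The mast cell protease Mcpt1 was at 373.8, 3924.5 and 275.8 in duodenal tumors, against 3753.1, 3432.9 and 1065.8 in cecal tumors, and Mcpt2 at 1050.8, 3415.7 and 1359.5 in duodenal tumors, against 1722, 2057.9 and 544.6 in cecal tumors. Cpa3 was at 127.2, 731.9 and 239.6 in duodenal tumors, against 382.6, 424.4 and 152 in cecal tumors. The part of mast cells in the Tph1 values was not tested.

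Neurons of the gut wall express Chga, Chgb, Scg5, Insm1 and Isl1. Of 15 neuron and glia markers on the array 12 were dim on all 6 arrays, and the list summed to 607.6 to 683.8 in duodenal tumors and 522.9 to 878.6 in cecal tumors. Vip was at 36.2, 2.3 and 43.5 in duodenal tumors, against 343.9, 49 and 194.1 in cecal tumors, and Sox10 was at 51.8 to 62.8 in duodenal tumors and 54.9 to 97.2 in cecal tumors. S100b was at 119.8, 161.9 and 223.5 in duodenal tumors, against 20.9, 21.2 and 14.6 in cecal tumors, and was called (limma adjusted p = 0.00138), though it was dim in every cecal tumor and so tested only through its duodenal values. Prph, a neuronal filament dim on all 6 arrays, was at 51.9, 72.7 and 28.9 in duodenal tumors, against 9.3, 14.4 and 7.2 in cecal tumors, also with no overlap (limma adjusted p = 0.0398 with no filter). Vip, Stmn2 and Nos1 of the same list did not overlap either, with cecal tumors higher. Stmn2 was at 16.7 to 36.1 in duodenal tumors, against 42.3 to 78.8 in cecal tumors. Nos1 was at 37.6 to 48.1 in duodenal tumors, against 61.2 to 66.8 in cecal tumors, and both genes were dim on all 6 arrays. Pancreatic islets share nearly all member factors. Their hormone gene Ins2 was at 7.9 to 14.5 in duodenal tumors and 7.9 to 14 in cecal tumors, and 3 of the 4 islet markers were dim on all arrays. The other, Ppy, was at 133.6, 13.1 and 128.6 in duodenal tumors, against 19.8, 30.6 and 24 in cecal tumors, while the brightest probe set of Iapp stayed at or below 87.5 and G6pc2 at or below 21.3. Of 9 exocrine pancreas markers 6 were dim on all arrays, and the acinar enzyme Cpa1 stayed at or below 6.2. Prss2, a trypsinogen, was at 65.2 to 98 in duodenal tumors, against 79.8 to 195.8 in cecal tumors. Cela1 was at 3796.8, 2651.9 and 5597.4 in duodenal tumors, against 1009.1, 1347.1 and 1570.9 in cecal tumors (limma adjusted p = 0.0102), and Clps at 792, 616.8 and 783.5 in duodenal tumors, against 211.8, 359.1 and 630.3 in cecal tumors.

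**Figure D5:**
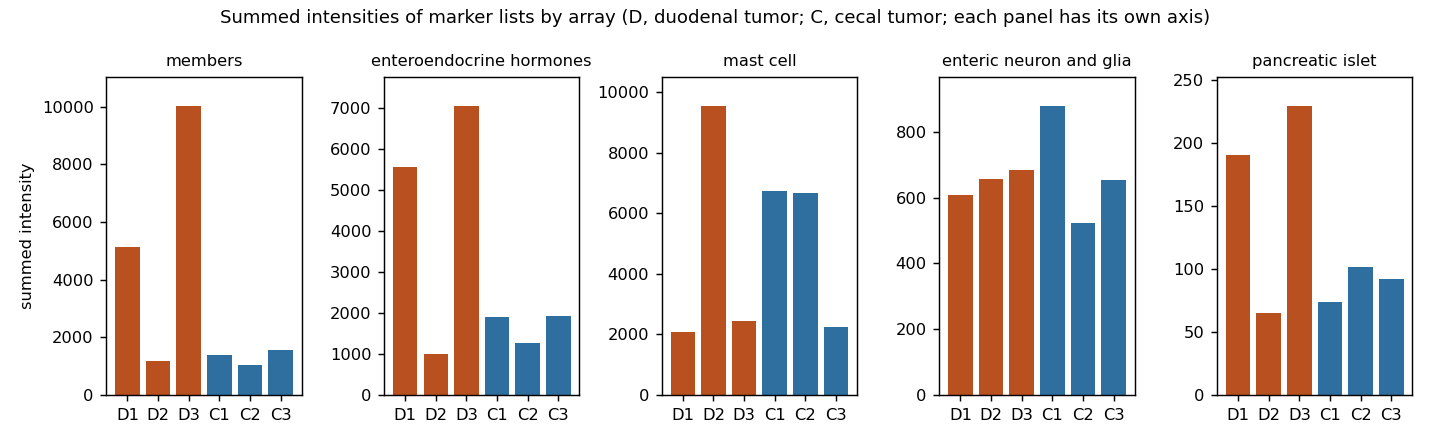
Summed intensity of the brightest probe sets of the members, the hormone genes and the mast cell, neuron and glia, and islet markers, with 1 bar per array, duodenal tumors 1 to 3 left of cecal tumors 1 to 3, and a separate axis for each panel. The member sum was 5121.3, 1165 and 10025.4 in duodenal tumors, against 1394.8, 1045.8 and 1574 in cecal tumors. Chgb was its largest part on every array, and mast cell markers were highest in duodenal tumor 2.

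Stomach surface genes were high in all 3 duodenal tumors, with 10 of 10 list genes called higher there, against 4.07% of all tested probe sets. Of the 10, 8 were dim in every cecal tumor and so tested only through their duodenal values. This list too was chosen with earlier results of these data known. Gkn1, a gastric surface protein, was at 12715.3, 12495.9 and 17057.3 in duodenal tumors, against 71.8, 29.3 and 64.3 in cecal tumors. Gkn2 was at 11883.3, 12095.6 and 16558 in duodenal tumors, against 39.8, 6.1 and 92.6 in cecal tumors. Ctse was at 12758.4, 11377 and 16414 in duodenal tumors, against 620.9, 1404.5 and 1267.7 in cecal tumors. Another, less bright Ctse probe set had a log2 difference of 0.73 ± 0.60 (SE) and did not pass (limma adjusted p = 0.534). Duodenal tumor 2 was the lowest of its site for 8 of the 10, by little for Gkn1 and Ctse but by more for the mucin Muc5ac, at 2430.2, 467.2 and 4185.1 in duodenal tumors, against 5.9, 9.5 and 13.1 in cecal tumors. The part of pyloric tissue and of these other cell types in the endocrine values was not tested.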

How the data were processed

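RNA of 6 mouse tumors, 3 duodenal and 3 cecal, was measured on 1 array each. The authors deposited MAS5 intensities, per the submitters' processing notes. The sources used here name no MAS5 version or scaling target and hold no detection calls. The arrays had medians of 164.6 to 181.8 and nearly equal trimmed means, and no normalization was added. Gene names came from the platform's annotation, in which 20351 of the 20380 probe sets that name 1 gene matched a RefSeq table (GRCm38.p6). The 64 control probe sets were left out of tests.

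Deposited intensities were transformed to log2(intensity + 16) and fitted with limma 3.58.1 in R 4.3.3 (lmFit, eBayes with trend), without a block. A fold bound sets the bright site's mean log2 intensity against the dim site's mean log2 of its arrays' 40th percentiles. Genes with several probe sets are represented by the brightest on average. The members and lists were chosen with earlier results of these data known. Of each related list the 4 genes of smallest p and all called genes are named, and of each marker list the 3 brightest. The others (Sox4, Foxa2, Nkx2-2, Scg3, Tac1, Ghrl, Hes1, Ins2, Cpa1, Prph, Vil1, Krt20, Muc5ac) were named after their values were seen. So were Sst, Cck, Gip, Nts, Insl5, Stmn2 and Nos1.

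Each tumor's deviation from its site mean was correlated across probe sets with the others'. The correlation was 0.274, 0.299 and 0.203 for pairs sharing a replicate number and -0.2 to -0.026 for the other pairs across sites. From the data alone, the numbers were therefore treated as a possible pairing, but only in the replicate block alternative. The main fit leaves it out. Deviations from a site mean cancel within the site, so the negative correlations follow in part from the positive ones. The fit was tested on simulated data. Alternatives covered the offset, filter, normalization, variance model, array weights, replicate block and each array left out. For the dim members and the related lists they were added after seeing the data. Figures were drawn with Python 3.11.15 and matplotlib 3.10.9.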

Additional observations from a re-analysis of the deposited data

How the results depend on the processing

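Of the 4 tested member probe sets, 1 (Neurog3) was called, also with the replicate block. The count was 4 of 17 with no filter on dim probe sets (both Neurog3 and both Isl1 probe sets), 2 of 4 with array weights (Neurog3 and Tph1) and 0 of 1 with the filter at the 60th percentile, which keeps only Chgb (limma adjusted p = 0.298). With single arrays left out it ran from 1 to 4, the 4 without duodenal tumor 2 (Neurog3, Chga, Chgb and Tph1) and the 1 without any other array. Over all probe sets 1290 were called, 1939 with array weights, 1571 with the replicate block, and 658 (without cecal tumor 1) to 1194 (without duodenal tumor 2) with single arrays left out; it was 700 without cecal tumor 2, 816 without duodenal tumor 1 and 856 without duodenal tumor 3. The split was 564 higher and 726 lower in duodenal tumors, or 473 and 811 with median centring. The replicate block changed no call of a tested member; among the other genes named with a test it added Prox1, Dnajc12, Krt20 and, with no filter, Neurod1. The log2 differences of Neurog3, Chga, Chgb and Tph1 were positive under every alternative run. Among the genes recomputed, Spr alone changed sign, with log2 differences of -0.24 to 0.01 when single arrays were left out (0.01 without duodenal tumor 1), and was not called in any. Dim intensities limit Pax4, Pax6, Neurod1, Isl1, Insm1 and Scg5, and 3 tumors a site limit the rest.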
